A study of Rattus norvegicus with 24 samples.

Results

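The genes described here are those of creatine kinase and of adenine nucleotide turnover: Ckm, Ckmt2, Ckb, Ampd1, Ampd3, Ak1 and the creatine transporter gene Slc6a8. They were found by gene symbol in a table of transcript values, and the values of a gene's transcripts were added. Of these 7 genes 6 had a row, each with 1 protein-coding transcript, among 15273 gene symbols in the table. Ak1, the gene of the main cytosolic adenylate kinase of muscle, was not analysed here. All 6 genes passed the filter on low values (at least 1 in at least 3 muscles), as did 11196 genes in all.

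RNA came from the tibialis anterior, a dorsiflexor of the ankle, of 12 adult male Wistar rats. In each rat the left muscle was trained by SpillOver resistance training for 2, 10, 20 or 30 days, with 3 rats at each time, and the right muscle of the same animal served as contralateral control. An implanted pulse generator activated the common peroneal nerve once a day, and current that spread to the tibial nerve made the stronger plantarflexors resist the dorsiflexors. All rats carried the implant, the control limb was unstimulated but not taken from a sham animal, and muscles were taken soon after the last bout, so a trained muscle holds the response to that bout together with the effect of the days before. All 12 contralateral muscles were pooled as control, and the comparison asks how each gene differed between trained and control muscle at each length of training.

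As background, creatine kinase moves a phosphate between ATP and creatine, and phosphocreatine is the fastest reserve of ATP in a contracting fibre. Ckm encodes the cytosolic muscle subunit, Ckmt2 the sarcomeric mitochondrial enzyme and Ckb the brain-type subunit, which is the cytosolic form of many cells outside muscle and of immature muscle. When ADP builds up, adenylate kinase makes ATP and AMP from it, and AMP deaminase turns AMP into IMP, which is returned to AMP in the purine nucleotide cycle or lost from the fibre as inosine and hypoxanthine. Ampd1 is the deaminase of fast skeletal fibres, and Ampd3 is the isoform known from red blood cells and many other tissues. Slc6a8 imports creatine, which muscle does not make in quantity itself.

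The deposited values are TPM-type: scaled for transcript length, and with the same total of 634431 in every library, so read counts, and with them the counting error of a value, cannot be read from them. They were divided here by a median-of-ratios factor of 0.778 to 1.14 per library, and every level below is such a rescaled value, which can be compared between genes. Changes are log2 fold changes of (value + 1) from limma with 5 groups, with Benjamini-Hochberg adjustment over all 11196 genes and a threshold of 0.05. That scale understates the change of genes with low values. The rescaling matters most at 30 days, where the median change of all genes was -0.01 after it and -0.18 on the values as deposited. The share of called genes that were higher was 53.4%, 53.9%, 54.9% and 54.0% at 2, 10, 20 and 30 days after rescaling, and 74.5%, 75.4%, 61.0% and 20.0% as deposited. In 1 control library (30 days, animal 1) transcripts of the mitochondrial genome took 43.7% of the total, against 27.8% to 34.6% in the other 11.

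The control levels of the 6 genes lay far apart. Ckm was rank 10 of the 11196 genes by mean control value, Ckmt2 rank 117, Ampd1 rank 156, Slc6a8 rank 1743, Ckb rank 5004 and Ampd3 rank 9343. Each of the neighbours in that order was separated by more than the spread of the 12 control muscles, except Ckmt2 (338.9 to 538.9) and Ampd1 (288.5 to 366.3), whose ranges overlapped.

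In the table's annotation (Rnor_6.0) the transcripts, named with the suffix 201, span chr1:80321585-80331842 on the plus strand for Ckm, chr2:21422818-21437194 on the minus strand for Ckmt2 and chr6:136142956-136145838 on the minus strand for Ckb. Ampd1 lies at chr2:205568935-205590022 and Ampd3 at chr1:175586097-175630468, both on the plus strand, and Slc6a8 at chrX:157129987-157139292 on the minus strand. RefSeq's promoter table held 5 of the 6 genes by symbol. The promoters of the 4 genes called at 2 or more times are shown in another build, GRCr8, each from 250 bases before to 50 bases after the annotated start. Their windows are chr1:88189211-88189510 (plus) for Ckm, chr2:24845462-24845761 (minus) for Ckmt2, chr6:136553415-136553714 (minus) for Ckb and chr2:193287082-193287381 (plus) for Ampd1. Capitals mark matches, on either strand, to a muscle-type E-box (CAGCTG), a GC box (GGGCGG) and the MEF2 consensus, whose matches here contain TATAAA.
Ckm: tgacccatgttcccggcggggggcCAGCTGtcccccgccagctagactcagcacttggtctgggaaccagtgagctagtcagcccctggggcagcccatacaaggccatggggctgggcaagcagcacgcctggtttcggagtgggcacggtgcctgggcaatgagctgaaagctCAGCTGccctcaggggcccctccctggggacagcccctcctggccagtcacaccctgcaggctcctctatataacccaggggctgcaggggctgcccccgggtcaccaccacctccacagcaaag
Ckmt2: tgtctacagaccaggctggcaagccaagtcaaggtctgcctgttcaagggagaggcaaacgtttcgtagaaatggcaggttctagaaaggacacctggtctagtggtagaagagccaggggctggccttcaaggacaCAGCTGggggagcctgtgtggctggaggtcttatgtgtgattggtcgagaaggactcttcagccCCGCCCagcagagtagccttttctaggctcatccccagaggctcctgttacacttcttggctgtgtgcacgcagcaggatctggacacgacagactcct
Ckb: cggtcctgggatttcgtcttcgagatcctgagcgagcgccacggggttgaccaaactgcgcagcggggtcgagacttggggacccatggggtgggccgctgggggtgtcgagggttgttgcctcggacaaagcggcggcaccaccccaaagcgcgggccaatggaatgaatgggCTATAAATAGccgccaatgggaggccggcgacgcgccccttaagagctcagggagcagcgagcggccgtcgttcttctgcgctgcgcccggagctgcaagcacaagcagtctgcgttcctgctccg
Ampd1: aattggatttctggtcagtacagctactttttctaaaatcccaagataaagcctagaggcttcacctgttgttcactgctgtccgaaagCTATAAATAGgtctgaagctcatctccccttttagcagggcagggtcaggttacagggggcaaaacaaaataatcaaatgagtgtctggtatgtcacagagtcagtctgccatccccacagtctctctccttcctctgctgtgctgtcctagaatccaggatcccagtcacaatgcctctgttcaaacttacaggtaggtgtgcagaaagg
The Ckm window held CAGCTG at -226 and at -75 relative to the start and that of Ckmt2 held it at -113, with a GC box on the other strand at -49. The windows of Ckb and Ampd1 held the same 10 letters that match the MEF2 consensus, at -76 and at -161, although their levels moved in opposite directions in trained muscle. Of 33469 promoters of this length, 15.1% held CAGCTG, 33.1% GGGCGG, 14.2% TATAAA and 3.29% a MEF2 match. Of the other motifs searched, TNAAGGTCA (held by 1.20%), the CArG box (1.64%), TGANTCA (7.33%) and TGACGTCA (1.83%) had no match in the 5 windows at hand, which included Slc6a8. A match describes letters only.

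The isoforms moved apart in trained muscle. Ampd1 fell at all 4 times, to between 36.3% and 51.0% of its control mean, and Ckm fell at 10, 20 and 30 days to between 70.1% and 79.4%. Ckb rose at all 4 times by 1.42 to 2.14 times, Ckmt2 rose at 20 and 30 days, and Ampd3 rose at 2 days. Slc6a8 passed the test at no time. At 2 days 2 of the 6 genes were called higher (Ckb and Ampd3) and 1 lower (Ampd1), where 15.4% of all genes were called higher and 13.5% lower. At 10 days 1 was higher (Ckb) and 2 were lower (Ckm and Ampd1), against 15.6% and 13.3% of all genes. At 20 days and again at 30 days Ckb and Ckmt2 were higher and Ckm and Ampd1 lower. The background was 11.7% higher and 9.64% lower at 20 days, and 11.1% higher and 9.46% lower at 30 days.

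**Figure D1:**
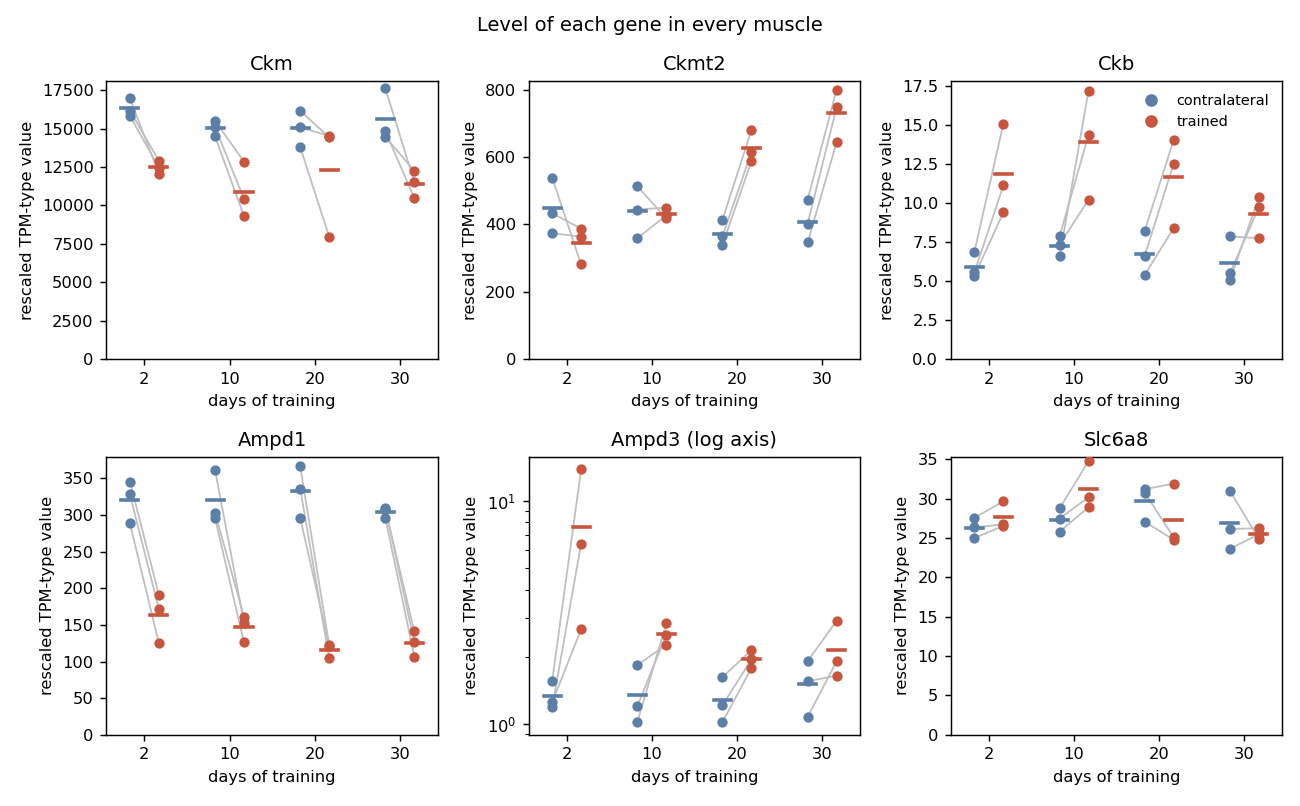
Rescaled value of each gene (vertical axis, TPM-type, per transcript length) in every contralateral (blue) and trained (red) muscle by days of training, with grey lines joining the muscles of 1 animal and bars at the mean of 3; Ampd3 is on a log axis. All 12 trained muscles lay below all 12 control muscles for Ampd1, and those of 20 and 30 days lay above all control muscles for Ckmt2.

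**Figure D2:**
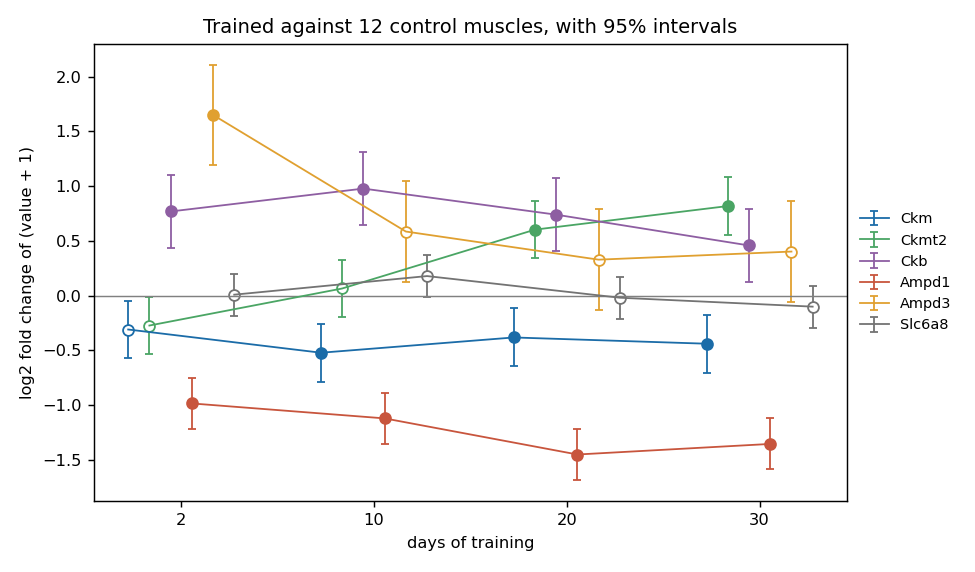
Log2 fold change of (value + 1) of each gene against the 12 control muscles by days of training, with 95% confidence intervals from limma; filled points passed the threshold of 0.05 on the adjusted p. Ampd1 stayed between -1.45 and -0.99, Ckmt2 went from -0.27 to 0.82 and Ampd3 from 1.65 to 0.40.

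Ckm was the most abundant of the 6 genes and was lower in the trained than in the own contralateral muscle in 12 of 12 animals, at 0.577 to 0.962 times its level. The 12 control muscles lay between 13799.7 and 17613, with a median of 15299. Trained muscles held 12901, 12064 and 12462 at 2 days, 9313.5, 12852 and 10424 at 10 days, 14422, 14515 and 7965 at 20 days, and 11522, 12249 and 10491 at 30 days. All trained muscles of 2, 10 and 30 days lay below every control muscle, and at 20 days 1 did. The log2 fold change was -0.52 ± 0.13 (SE; adjusted p = 0.00319) at 10 days, -0.38 (0.0342) at 20 days and -0.44 (0.0161) at 30 days. At 2 days it was -0.31, with a limma adjusted p of 0.0725, or 0.0481 among genes with a mean of at least 10. The call at 20 days rested on 1 muscle, that of animal 3, without which the change was -0.10 (adjusted p = 0.580). Without animal 1 the adjusted p was 0.0530 at 10 days and 0.0505 at 30 days, and without animal 3 it was 0.105 at 30 days. With animal as a block the changes were -0.34 (adjusted p = 0.127) at 20 days and -0.45 (0.0577) at 30 days, and with time-matched controls the adjusted p at 10 days was 0.0544.

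Fast fibre markers were lower as a sum in trained muscle, as Ckm was, but single markers differed. At 30 days Pvalb changed by -3.16 and Tnni2, called at no time, by -0.07. The sum over 7 genes was 48858 to 56834 in control and 31109 to 46833 in trained muscle, with no overlap. The numbers called lower were 4, 5, 5 and 5 of 7 at 2, 10, 20 and 30 days. Myh4 (the IIB myosin heavy chain) was the highest, with log2 fold changes of -0.29, -0.54 and -0.48 at 10, 20 and 30 days. The paper reports a far steeper fall of this transcript at these times. By immunohistochemistry it also reports fewer IIB and more IIX fibres after 30 days. The difference in the Myh4 values was not examined, so the sum cannot be read as a measure of IIB fibres. Markers of fibroblasts rose, 4 of 5 being called higher at 2 days and 5 of 5 after that, with sums of 74.6 to 253.1 in control and 300.9 to 981.8 in trained muscle. Macrophage markers summed to 6.43 to 16.3 in control and 19.2 to 50.1 in trained muscle. Of 4 smooth muscle markers, 3 were called higher at 2 days and 1 at 10 days, and of 3 endothelial markers 2 were called higher at 10 days and 1 at 20 and at 30 days, after 1 was called lower at 2 days. Of 5 Schwann cell markers 1 was called higher at 2 days and 2 lower at 30 days. Of 2 satellite cell markers tested, Myf5 was called higher at 2 days (0.54, limma adjusted p = 0.00859) and 10 days (0.40, 0.0491). The other, Cdh15, was called at no time. In bulk muscle, fewer fibres of a type and less RNA of a gene per fibre cannot be told apart, and the part of these markers in the results on Ckm, Ampd1, Ckb and Ampd3 was not tested. Erythroid markers overlapped between the groups (351.6 to 841.5 in trained, 373.8 to 1145 in control muscle), and 0 of 4 were called in limma at any time. Slow fibre markers were lower at 2 days, with sums of 759.9 to 1158 below the control range of 1214 to 2450.5 and 4 of 7 called lower. From 10 days their sums overlapped the control range, with 1 of 7 called lower at 10 days and 0 after that in limma.

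Ckb, the brain-type subunit, rose while Ckm was lower. Control muscles held 5.06 to 8.25, with a median of 6.62. Trained muscles held 9.43, 15.1 and 11.2 at 2 days, 14.4, 17.2 and 10.2 at 10 days, 12.6, 14.1 and 8.41 at 20 days, and 10.4, 9.75 and 7.76 at 30 days. All 9 trained muscles of 2 to 20 days lay above every control muscle, and 2 of 3 did at 30 days, where the trained muscle of animal 3 was at 0.986 times its contralateral muscle. The log2 fold change was 0.77 ± 0.16 (SE; adjusted p = 8.79e-04) at 2 days, 0.98 (6.11e-05) at 10 days and 0.74 (0.00171) at 20 days. It was 0.46 (0.0471) at 30 days. The call at 30 days was lost in 10 of 11 alternative settings, for example with animal as a block (0.54, adjusted p = 0.0669) and on the values as deposited (0.26, 0.286). How reads that fit both Ckm and Ckb were assigned is not given in the sources used here, and Ckb was at under 0.15% of the summed creatine kinase values throughout.

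Ckmt2, the sarcomeric mitochondrial enzyme at the site of ATP export, was below its control mean at 2 days and rose at 20 and 30 days. Control muscles held 338.9 to 538.9, with a median of 408.0. Trained muscles held 363.5, 280.9 and 387.3 at 2 days, 417.7, 426.4 and 449.6 at 10 days, 614.7, 587.7 and 679.6 at 20 days, and 799.7, 747.1 and 643.4 at 30 days. The muscles of 20 and 30 days lay above every control muscle, while those of 2 and 10 days overlapped the controls. The log2 fold change was -0.27 ± 0.13 (SE; adjusted p = 0.111) at 2 days and 0.06 (0.751) at 10 days. It was 0.60 (0.00124) at 20 days and 0.82 (6.32e-05) at 30 days. Against the own contralateral muscle, trained muscle was lower in 3 of 3 animals at 2 days (0.521 to 0.973 times) and higher in 3 of 3 at 30 days (1.69 to 1.86 times). The later calls held in all 12 alternative settings, with 0.59 at 30 days on the values as deposited.

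Transcripts of the mitochondrial genome took 24.9% to 28.5% of the total in trained muscle at 2 days, 23.4% to 27.4% at 10 days, 31.1% to 35.5% at 20 days and 39.9% to 43.9% at 30 days, against 27.8% to 34.6% in 11 of the 12 control muscles. Like Ckmt2 they were highest at 30 days among trained muscles, but at 20 days only 1 of 3 muscles lay above that range. The control muscle left out of the range, that of animal 1 at 30 days, held 43.7%. Its trained muscle held less, 39.9%, whereas Ckmt2 was higher in the trained muscle in 3 of 3 animals at 30 days. The part of this share in the result on Ckmt2 was not tested.

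Because the values are per length, the isoforms can be set side by side within a muscle. The summed creatine kinase values also include Ckmt1, which had a row but did not pass the filter on low values. Ckmt2 made up 2.20% to 3.42% of the summed creatine kinase values in control muscle, 2.27% to 3.01% at 2 days, 3.21% to 4.29% at 10 days, 3.89% to 7.85% at 20 days and 5.74% to 6.49% at 30 days. The muscles of 20 and 30 days lay above every control muscle, and the highest, of animal 3 at 20 days, was the one with the low Ckm value. There were 28.2 to 44.5 units of Ckm per unit of Ckmt2 in control muscle and 14.4 to 16.4 at 30 days. The share of Ckb was 0.0280% to 0.0535% in control and 0.0697% to 0.148% in trained muscle, also without overlap. The sum is mostly Ckm, so a higher share of Ckb or Ckmt2 does not by itself mean a higher level. In animal 3 of 30 days Ckb was at 0.986 times its contralateral muscle, while its share was at 1.34 times. The summed creatine kinase value was lower in the trained muscle in 3 of 3 animals at each time.

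**Figure D3:**
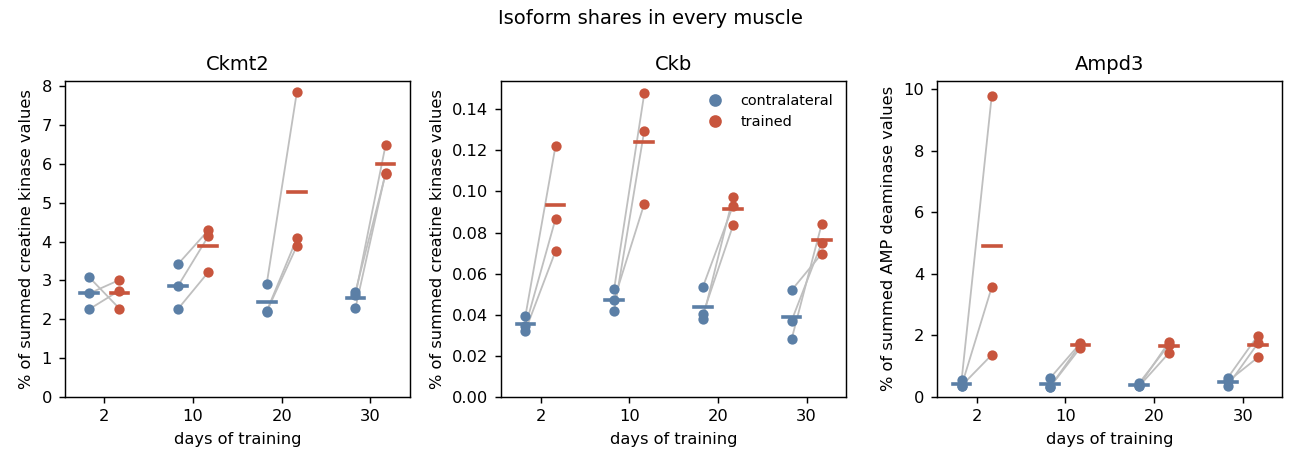
Share of Ckmt2 and of Ckb in the summed values of Ckm, Ckmt2, Ckb and Ckmt1, and of Ampd3 in those of Ampd1, Ampd2 and Ampd3 (vertical axes, percent). Every contralateral (blue) and trained (red) muscle is shown by days of training, with grey lines joining the muscles of 1 animal and bars at the mean. The Ckmt2 share at 30 days was 5.74% to 6.49%, and the Ampd3 share reached 9.80% in 1 muscle at 2 days.

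Ampd1, the AMP deaminase of fast fibres, fell at all 4 times. Control muscles held 288.5 to 366.3, with a median of 308.7. Trained muscles held 191.3, 125.3 and 171.9 at 2 days, 160.6, 153.0 and 126.0 at 10 days, 121.2, 104.6 and 122.3 at 20 days, and 106.6, 126.2 and 141.1 at 30 days. All 12 trained muscles lay below all 12 control muscles, and each was at 0.311 to 0.553 times its own contralateral muscle. The log2 fold change was -0.99 ± 0.11 (SE; adjusted p = 5.20e-07) at 2 days, -1.12 (6.44e-08) at 10 days and -1.45 (1.66e-09) at 20 days. It was -1.36 (7.98e-09) at 30 days. These calls held in all 12 alternative settings at each time.

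Ampd3 had a low level in control muscle and rose at 2 days. Control muscles held 1.02 to 1.91, with a median of 1.23. Trained muscles held 2.66, 13.8 and 6.42 at 2 days, 2.82, 2.51 and 2.27 at 10 days, 1.78, 1.95 and 2.14 at 20 days, and 1.91, 1.65 and 2.90 at 30 days. All muscles of 2 and 10 days lay above every control muscle, 2 of 3 did at 20 days and 1 of 3 at 30 days. The log2 fold change was 1.65 ± 0.22 (SE; adjusted p = 5.29e-06) at 2 days, and it was 0.58 (0.0504) at 10 days, 0.33 (0.327) at 20 days and 0.40 (0.212) at 30 days. Against the own contralateral muscle, trained muscle was higher in 3 of 3 animals at each time, so in 12 of 12. The ratios spread widely at 2 days, from 2.13 to 8.85, and lay between 1.06 and 2.77 at the later times. Without the muscle of animal 2 the change was 1.15, with an adjusted p of 1.17e-04. The adjusted p at 10 days was 0.0355 on the values as deposited, 0.106 with animal as a block and 0.180 with time-matched controls.

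In the balance of AMP deaminases, the third isoform Ampd2, which is the form of many non-muscle tissues, had a control mean of 1.15 ± 0.240 (SD, n = 12) and rose at 10 days (0.38, limma adjusted p = 0.0226). At 2, 20 and 30 days Ampd2 was not called (0.26, 0.26 and 0.0009, limma adjusted p of 0.113, 0.138 and 0.997). Its share of the summed value was 0.222% to 0.484% in control and 0.558% to 1.81% in trained muscle, with no overlap. That sum is mostly Ampd1 and fell with it, so a higher share does not by itself mean a higher level of Ampd2. Ampd3 made up 0.330% to 0.616% of the summed value in control muscle and 1.28% to 1.99% at 10 to 30 days. At 2 days its share was 1.36%, 9.80% and 3.56%. There were 160.7 to 300.8 units of Ampd1 per unit of Ampd3 in control muscle and 9.07 to 76.6 in trained muscle, with no overlap. The summed value still fell below that of the own contralateral muscle in 3 of 3 animals at each time, at 0.484 to 0.561 times at 2 days and 0.368 to 0.468 times at 30 days.

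Slc6a8, the creatine transporter gene, passed the test at no time, and its intervals were narrow. Control muscles held 23.6 to 31.2, with a median of 27.3. Trained muscles held 26.5, 26.7 and 29.7 at 2 days, 28.9, 34.8 and 30.2 at 10 days, 24.8, 31.9 and 25.1 at 20 days, and 26.2, 25.4 and 24.9 at 30 days. The ranges overlapped at every time, with 1 muscle above all controls at 10 days and 1 at 20 days. The log2 fold change was 0.01 (95% interval -0.18 to 0.20) at 2 days, 0.18 (-0.01 to 0.37) at 10 days, -0.02 (-0.21 to 0.17) at 20 days and -0.10 (-0.29 to 0.09) at 30 days, with limma adjusted p values of 0.960, 0.160, 0.908 and 0.480.

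Trained muscles of different length of training were compared directly in the same fit. Between 10 and 2 days 1.93% of all genes were called, and of the 6 genes only Ampd3 was, being 1.07 ± 0.28 (SE; adjusted p = 0.0488) lower on the log2 scale at 10 days. Between 30 and 10 days, with 3.94% of all genes called, only Ckmt2 passed, with a change of 0.75 ± 0.16 (adjusted p = 0.0107). Between 30 and 2 days, with 15.0% called, Ckmt2 was higher by 1.09 (adjusted p = 9.76e-05) and Ampd3 changed by -1.25 (0.00383). With animal as a block, where each trained muscle is set against its own contralateral muscle, Ckmt2 from 2 to 30 days still passed (1.22, adjusted p = 0.0148). The others then did not: Ckmt2 from 10 to 30 days was 0.86 (adjusted p = 0.166), Ampd3 from 2 to 10 days -1.07 (0.342) and Ampd3 from 2 to 30 days -1.35 (0.0567). Without animal 2 at 2 days, the change of Ampd3 from 2 to 10 days was -0.56 (adjusted p = 0.321). That contrast of Ampd3 passed in 2 of 14 alternative settings. Ckmt2 from 10 to 30 days was 0.41 on the values as deposited (adjusted p = 0.0661) and 0.73 without animal 1 of 10 days (0.0546). Ckm, Ckb, Ampd1 and Slc6a8 passed in none of these contrasts after rescaling, and the interval for Ampd1 from 2 to 30 days was -0.66 to -0.08 (adjusted p = 0.0824).

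The contralateral muscles of the 4 days were also compared with each other, by a limma F test. None of the 6 genes passed (adjusted p from 0.773 to 0.942, unadjusted p from 0.435 to 0.863), beside 0.0666% of 10517 genes tested, or 7 genes, and 1153 genes at an unadjusted p under 0.05.

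The other genes of creatine and purine metabolism, taken from lists by role, are given by counts and by the median change, beside that of all genes (-0.01, -0.03, -0.03 and -0.01 at 2, 10, 20 and 30 days). Of all genes, 15.4%, 15.6%, 11.7% and 11.1% were called higher and 13.5%, 13.3%, 9.64% and 9.46% lower at these times, and a count of 1 in a list of this size is near that background. In creatine synthesis and transport, Gatm, whose product makes the precursor guanidinoacetate, rose at all 4 times from a control mean of 1.59 ± 0.225 (SD, n = 12) to 7.72 ± 3.85 at 2 days (n = 3). Its log2 fold changes were 1.64, 1.33, 0.80 and 0.52, and the last was not called with the block (adjusted p = 0.0927). Gamt, which methylates guanidinoacetate to creatine, fell at 2 days by 0.62 on the log2 scale (adjusted p = 0.00381) from a control mean of 17.3. With Slc6a8, 1 of 3 genes of this list was higher at each time and 1 was lower at 2 days, and the median change was 0.01, 0.18, 0.12 and 0.11.

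In the purine nucleotide cycle, 6 genes including the 3 deaminases were tested. At 2 days 2 were higher and 2 lower, at 10 days again 2 and 2, and at 20 and at 30 days 1 and 1, which is near the background, with medians of 0.25, 0.21, 0.24 and 0.04. Adss, the broadly expressed adenylosuccinate synthase, rose at 10 days (0.58, adjusted p = 6.76e-04) and at 20 days (0.35, 0.0373), where the call was lost with the block (0.25, 0.230). Its muscle counterpart Adssl1 was among the genes called lower at 2 and 10 days, and Adsl, the lyase of the cycle, was called higher at 2 and 30 days. With the block Adssl1 was not called at 10 days (adjusted p = 0.0794), nor was Adsl at 2 days (0.177) or at 30 days (0.120). Genes such as these, named only to complete a count, were chosen after their values were seen. Of 5 adenylate and nucleoside diphosphate kinases, Ak3, which works on GTP and AMP in the mitochondrial matrix, was lower at all 4 times, and Nme2 was higher at 20 days, with medians of 0.02, 0.00, -0.04 and 0.08. With the block 0 genes of that list were called lower at any time.

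Among 12 genes of nucleotide breakdown and salvage, 2, 3, 3 and 4 were higher and 2, 1, 0 and 0 lower, with medians of 0.08, 0.14, 0.09 and 0.22. At 2 days 2 of 12 either way is near the 15.4% and 13.5% of all genes, and the 4 higher at 30 days stand beside 11.1%. On the values as deposited the numbers higher were 2, 4, 3 and 1 and the numbers lower 2, 0, 0 and 0. Adk and Xdh, among the 4 at 30 days, were not called with the block (adjusted p = 0.236 and 0.0853). Ada, adenosine deaminase, rose at all 4 times (0.57, 0.92, 0.76 and 0.54), and so did Pnp, which splits inosine to hypoxanthine (0.64, 0.63, 0.79 and 0.73). Pnp passed in all alternative settings. Ada, with a low control mean of 1.52, did not pass at 2 days with the block (0.45, adjusted p = 0.112) or with time-matched controls (0.0835). At 30 days the call of Ada was lost on the values as deposited and without animal 1 or animal 3. Nt5c1a, the cytosolic nucleotidase that forms adenosine from AMP, fell at 2 days by 1.40 (adjusted p = 0.00929), a call that was lost with the block (-0.78, 0.101). At 20 days Nt5c1a was not called (-0.72, adjusted p = 0.214), but it was with the block (-1.14, 0.0260). Its control muscles ranged widely, from 1.83 to 17.8. Aprt, which salvages adenine, was higher at 10 days (0.54, adjusted p = 0.0224).

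In de novo purine synthesis 2, 1, 1 and 1 of 10 genes were higher and 1, 5, 1 and 2 lower, with medians of 0.02, -0.28, -0.08 and -0.05. Except for the 5 lower at 10 days, where 13.3% of all genes were lower, these are counts of 1 or 2 in 10 and near the background. On the values as deposited 2 of 10 were lower at 10 days. With the block Gart, 1 of the 5, was not called (adjusted p = 0.0679). Ppat, which catalyses the committed step, was lower at all 4 times (-0.51, -0.44, -0.46 and -0.40), from a control mean of 10.9, and at 30 days was not called with the block (adjusted p = 0.103). Pfas, which acts later in the same pathway, was lower at 10 days (-0.81) and at 30 days (-0.64, block adjusted p = 0.0944). Impdh1, which leads from IMP to guanine nucleotides, was higher at 2 days (0.85), 10 days (0.62) and 20 days (0.58, block adjusted p = 0.0643).

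Of the carriers that link Ckmt2 to ATP supply, 5 were tested, and 1, 1, 0 and 1 were higher and 2, 2, 0 and 0 lower, with medians of -0.24, -0.20, 0.00 and 0.09, in a list too short to read against the background. Slc25a5, an ADP/ATP carrier of dividing and non-muscle cells, rose at 2 days (0.82, adjusted p = 5.50e-04) and at 10 days (0.60, 0.00746, and 0.127 with the block). Vdac1, the main porin of the outer mitochondrial membrane, fell at 2 days (-0.54, adjusted p = 2.63e-04) and at 10 days (-0.30, 0.0263, and 0.0658 with the block). Slc25a4, the carrier of striated muscle, had a control mean of 2716 ± 349 (SD, n = 12). It was not called at any time in the fit of 5 groups, but was called lower at 2 days with the block (-0.48, adjusted p = 0.0172).

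AMP-activated protein kinase senses the AMP that these enzymes set, and 6 of its subunit genes were tested. The numbers higher were 1, 2, 1 and 2 and the numbers lower 1, 3, 2 and 3, with medians of -0.12, -0.41, -0.48 and -0.38. The 3 lower at 10 and at 30 days stand beside 13.3% and 9.46% of all genes, and the 2 higher beside 15.6% and 11.1%. On the values as deposited the numbers higher were 1, 2, 1 and 1 and the numbers lower 0, 1, 1 and 3. Prkab2, a beta subunit called lower at each time, was not called with the block at 2 days (adjusted p = 0.106) or 30 days (0.171). Prkag3, the gamma subunit of fast glycolytic fibres, fell at 10 days (-1.15, adjusted p = 5.95e-05), 20 days (-1.94, 7.15e-08) and 30 days (-1.97, 9.17e-08). Its control mean of 34.5 ± 8.60 (SD, n = 12) compares with 7.86 ± 0.891 (n = 3) at 30 days. Prkag2, another gamma subunit, rose at the same times (0.56, 0.83 and 0.89) from 1.24 ± 0.409, with an adjusted p of 0.203 at 10 days under the block. Prkaa1, a catalytic subunit, rose at 2, 10 and 30 days (0.75, 0.58 and 0.39), and with the block not at 30 days (adjusted p = 0.218). Prkab1 fell at 10 days (-0.44) and 30 days (-0.71, block adjusted p = 0.0568).

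**Figure D4:**
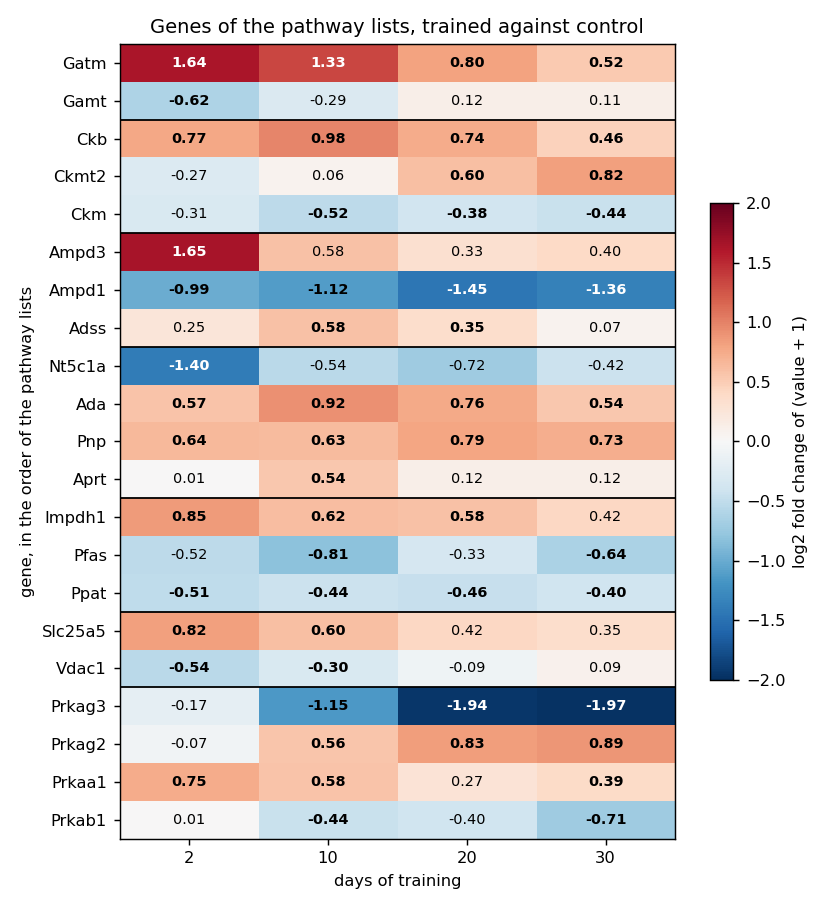
Log2 fold change of (value + 1) against the 12 control muscles (colour and number) for the named genes of the lists by role (rows, with lines between lists) and days of training (columns); bold numbers passed the threshold of 0.05 on the adjusted p. Gatm and Ampd3 are highest at 2 days, while Prkag3 reaches -1.97 and Ckmt2 0.82 at 30 days.

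The genes with the pattern most like each of the 6 were named by Pearson r of log2(value + 1) over the 24 muscles, among 3840 or 3841 genes with a mean of at least 10. The points share animals, scaling and the split into trained and control muscle, so r over the 12 trained minus contralateral differences stands beside it. For Ckmt2 these were Got1 (r = 0.94, and 0.96 over the differences), a malate-aspartate shuttle transaminase, Ca14 (0.93 and 0.97), a carbonic anhydrase, and Ndufb9 (0.92 and 0.91), a complex I subunit. For Ampd3 they were Rpl3 (0.93 and 0.92), a ribosomal protein, Tubb6 (0.93 and 0.88), a tubulin, and Pvr (0.92 and 0.96), a cell adhesion receptor. For Ckm they were Zfand3 (0.95 and 0.85), an unnamed gene, AABR07005775.1 (0.94 and 0.88), and Pink1 (0.93 and 0.75), a mitochondrial kinase.

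For Ampd1 and Ckb, r over the differences was lower than over the muscles. Ampd1 was most like Reep1 (0.96, and 0.73 over the differences), Calm2 (0.95 and 0.33), a calmodulin gene, and Asb9 (0.93 and -0.04). Ckb was most like Pcolce (0.91 and 0.66), an enhancer of procollagen processing, Cd81 (0.91 and 0.69), a tetraspanin, and Trim63 (0.90 and 0.53), a muscle ubiquitin ligase. Slc6a8 had its highest r with Ankrd23 (0.73 and 0.76), Camk2b (0.72 and 0.75) and Nfe2l1 (0.71 and 0.80).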

How the data were processed

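Poly-A RNA of 24 tibialis anterior muscles was sequenced, from the trained left and contralateral right muscle of 12 rats, with 3 rats per time point by the labels. The authors trimmed the reads, aligned them with STAR in Partek Flow to Rnor_6.0 and quantified Ensembl transcripts. The authors deposited TPM-type values for 20027 transcripts, with 1 total per library. A gene-level table and the authors' own comparisons (p-values, FDR and ratios) were not used. With no counts deposited, no count model was run, and the counting error of a value could not be computed.

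Each library was rescaled by a median-of-ratios factor, from 16230 transcripts above 0 in all libraries, and summed per gene symbol. Genes with at least 1 in at least 3 libraries were fitted as log2(value + 1) with limma 3.58.1 in R 4.3.3, in 5 groups (12 control muscles and 3 trained muscles per time). P-values were adjusted by Benjamini-Hochberg over all 11196 genes, with a threshold of 0.05, and the fit was tested on simulated data. Tables were made with Python 3.11.15, numpy 2.4.6, pandas 2.3.3 and matplotlib 3.10.9. No pair of libraries (of 276) was identical.

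The genes and lists were chosen with earlier results of these data known. Named are the member genes, from each list up to 4 genes called with a log2 change of at least 0.5, and the 3 most alike genes per member. From each marker list the gene with the highest mean may be named, and genes outside this rule were chosen after their values were seen. The muscles of an animal are paired by the animal number in the labels. Their deviations from the group means had a median r of 0.174 over genes (12 pairs, 0.0277 to 0.343), against -0.00964 between animals, and animal as a block was an alternative. Other alternatives were the values as deposited, a pseudocount of 0.1, no filter, a mean of at least 10, time-matched controls, the highest transcript per gene, an intensity trend, and leaving out each trained muscle and 1 control library.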

Additional observations from a re-analysis of the deposited data

Results flagged for a closer look

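For 4 results, the level in trained muscle differed between lengths of training by a limma contrast between the trained groups, which with a shared control group is also the difference of their effects (adjusted p under 0.05 over all genes). Ckmt2 was higher at 30 than at 10 days by 0.75 and than at 2 days by 1.09 on the log2 scale. Ampd3 changed by -1.07 from 2 to 10 days and by -1.25 from 2 to 30 days. Only the rise of Ckmt2 from 2 to 30 days was also called with animal as a block.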

How the results depend on the processing

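Of the 14 member calls against control, 10 were the same in every alternative, 11 held with animal as a block, 10 with time-matched controls and 13 on the values as deposited. Those lost in at least 1 were Ckm at 10, 20 and 30 days and Ckb at 30 days. Of 41 calls of the other named genes, 29 held with the block, 28 with time-matched controls, 34 as deposited and 22 in every alternative. With the block and with time-matched controls Ckmt2 at 10 days was -0.010, and with the block Ckb from 2 to 10 days was -0.049. Ckm from 10 to 30 days was -0.26 as deposited. Omitting 1 trained muscle gave -0.043 to 0.035 for Slc6a8 at 2 days, -0.14 to 0.042 at 20 days, and -0.022 to 0.21 for Ckm from 10 to 30 days. Ckm at 2 days passed at a mean of at least 10 (adjusted p = 0.0481). None of the reversed values passed the threshold, and the cause was not tested.

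At a mean of at least 10, where fewer genes are tested, 1654, 1420, 1064 and 1155 genes were called at 2, 10, 20 and 30 days, against 3235, 3240, 2393 and 2304. With time-matched controls 2007, 1589 and 1121 were called at 10, 20 and 30 days. With the block 1377 were called at 30 days, 7 between 10 and 2 days, 9 between 30 and 10 and 314 between 30 and 2, against 216, 441 and 1677 between trained groups without it. As deposited the last contrasts gave 2071 and 3294, of which 2.37% and 7.59% were higher, against 42.0% and 47.2%, and the median change of all genes was -0.27 in both. On those values Ckb (-0.83), Ampd1 (-0.58) and Slc6a8 (-0.61) were also called between 30 and 10 days, and Ckm (-0.47), Ckb (-0.62), Ampd1 (-0.71) and Slc6a8 (-0.44) between 30 and 2. A pseudocount of 0.1 gave 282 calls between 30 and 10 days. Without 1 trained muscle the calls were 1492 to 3496 at 2 days, 2130 to 2693 at 10 days, 1469 to 1822 at 30 days, 66 to 484 between 10 and 2 days, 105 to 486 between 30 and 10 and 715 to 2123 between 30 and 2. The lowest counts were without animal 2 (2 days), 1 (10 days) and 2 (30 days). The values keep no read counts, so what depth limits could not be computed.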
